A study of Mus musculus with 6 samples.

Results

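Transcript levels of 10 genes of the Nrf2 antioxidant response were compared between muscle stem cells of control mice and of mice labelled as lacking Setdb1, a histone methyltransferase gene of the silencing machinery. The 10 genes were chosen by name: Nfe2l2, which encodes Nrf2 itself, its inhibitor gene Keap1, and the targets Nqo1, Hmox1, Gclc, Gclm, Txnrd1, Srxn1, Slc7a11 and Gsr. All 10 were found among the 55487 genes of the count table, and 9 had enough counts to be tested. RNA was sequenced from cells of 10-week-old mice, 60 h after cardiotoxin (CTX), a venom toxin that destroys muscle fibres and sets off their repair. Control cells came from 3 mice with the genotype WT that were given oil, and knockout (KO) cells from 3 mice with the genotype KO that were given tamoxifen. Genotype and tamoxifen therefore changed together and cannot be told apart. The labels name neither the recombinase line, the strain nor the deleted exon. A pair of libraries stood apart: in KO library 1 a single gene, CT010467.1, held 38.4% of the counts, against 28.6 to 32.2% in the other 5, and control library 3 held the most neutrophil transcripts. Without either or both of them, no member was called.

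Nrf2 is a transcription factor that answers oxidants and reactive chemicals. In resting cells the adaptor protein Keap1 holds Nrf2 and hands it to a ubiquitin ligase for destruction. When cysteines of Keap1 are modified, Nrf2 escapes, pairs with a small Maf protein and binds the antioxidant response element in its target genes, so its activity is set largely at the level of the protein and is read from its targets more than from its own transcript. The targets supply glutathione and thioredoxin, reduce quinones and break down haem. In regenerating muscle the response is known as a guard of satellite cells, the resident stem cells, against the oxidants of the inflamed tissue.

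The antioxidant response element is the sequence that Nrf2 binds, so its core, TGACNNNGC, was searched on both strands of the RefSeq promoters (GRCm38.p6, 250 bases before to 50 bases after each start). The table held promoters of 7 members, which are Nfe2l2, Srxn1, Slc7a11, Gclm, Nqo1, Keap1 and Txnrd1, with 3 separate starts for Txnrd1. A match was found in 4 of the 9 promoters of these genes, 1 each in 4 genes, against 12.4% of all 32851 promoters. The matches are shown because these 4 genes carry the letters of the element near a start, and their values, given below, differ in direction. Each is written 5′ to 3′ on the strand that reads TGACNNNGC, with the match in capitals.
Nfe2l2, chr2:75704885-75704913, minus strand: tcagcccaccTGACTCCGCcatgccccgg
Gclm, chr3:122245413-122245441, minus strand: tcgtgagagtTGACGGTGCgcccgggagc
Txnrd1, chr10:82859104-82859132, minus strand: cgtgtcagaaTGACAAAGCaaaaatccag
Srxn1, chr2:152105542-152105570, minus strand: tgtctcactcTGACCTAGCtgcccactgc
The match in Nfe2l2 lay on the gene's own strand, and the other three lay on the strand opposite to the gene. Counted along the gene, a match began 240 bases before the start of Nfe2l2, 134 before that of Gclm and 92 before 1 of the 3 Txnrd1 starts. In Srxn1 it began at base 29 of the transcript. None of the 4 overlapped the related AP-1 motif TGANTCA. A match in these letters is a description of the sequence and not a binding site.

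No member of the set was called higher or lower in KO cells. Of the 9 tested genes, 0 rose and 0 fell at an adjusted p under 0.05 (edgeR), where 2.22% of all 11224 tested genes rose and 0.615% fell. DESeq2, which called 1.26% of the genes it tested, and limma-voom, which called 1.78%, also called none of the members. A positive log2 fold change was measured in 3 members (Srxn1, Slc7a11, Keap1) and a negative one in 6, with a median of -0.18 against 0.01 for all tested genes. At an unadjusted p under 0.05, 1 member was higher (Srxn1) and 3 were lower (Gclc, Txnrd1 and Nfe2l2), against 10.1% and 7.64% of all tested genes. The 3 KO libraries lay below the 3 control libraries in 4 members, where this held for 11.5% of all tested genes, and above them in none, where it held for 12.8%. In bulk RNA, fewer cells that express a gene and less RNA per cell cannot be told apart.

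**Figure D1:**
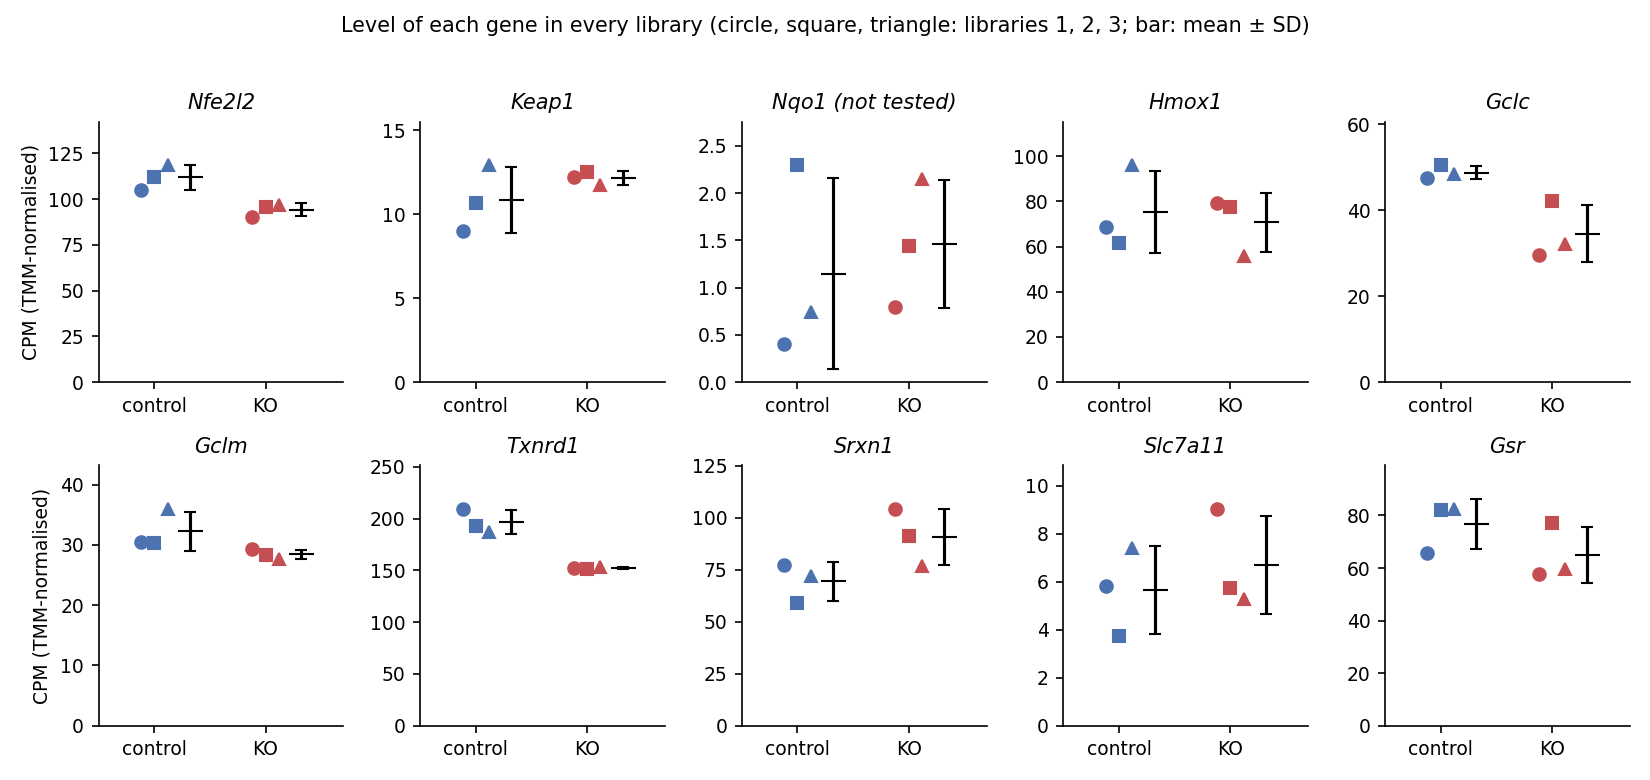
Level of each of the 10 genes in CPM (linear axis from 0) in every library, with controls in blue, KO in red and the mean ± SD of each group in black. Nfe2l2, Gclc, Gclm and Txnrd1 have every KO library below every control library, while the groups overlap in the other 6 genes.

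Levels are given as CPM (counts scaled by library size, TMM-normalised), in the order of libraries 1 to 3, and positions are on GRCm38. Nfe2l2 (chromosome 2, 75675513 to 75704641, minus strand) had 105, 112 and 119 CPM in control cells, against 90.2, 95.5 and 96.9 CPM in KO cells. All KO values were below all control values, by a small margin. The log2 fold change was -0.25 (SE 0.11, unadjusted 95% interval -0.49 to -0.01) and did not pass after adjustment (adjusted p = 0.255). The upper end of that interval is a fold of 0.991, close to no change. Because the interval is not adjusted for the number of genes tested, it does not exclude a rise of the transcript. Keap1 (chromosome 9, 21229730 to 21239361, minus strand), whose product keeps Nrf2 low, was measured at 9.01, 10.6 and 12.9 CPM in control and 12.2, 12.5 and 11.7 CPM in KO libraries. Its groups overlapped, and the log2 fold change was 0.16 (SE 0.19, adjusted p = 0.716). Keap1 rested on 45 to 70 counts per library, and its interval, from 0.838-fold to 1.49-fold, leaves room for changes either way.

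Gclc and Gclm encode the catalytic and the modifier subunit of glutamate-cysteine ligase, the rate-limiting enzyme of glutathione synthesis. Gclc (chromosome 9, 77754535 to 77794485) had 47.5, 50.5 and 48.4 CPM in control cells, against 29.5, 42.1 and 32.1 CPM in KO cells. The controls lay close together and the KO libraries were all lower and more spread. The log2 fold change of -0.49 (SE 0.14, unadjusted 95% interval -0.80 to -0.19) was the most negative of the 9 and did not pass (adjusted p = 0.0852). Leaving out KO library 2, the highest of the KO libraries, brought it past the threshold (log2 fold change -0.66, adjusted p = 0.0381), as did testing without a low-count filter (-0.53, adjusted p = 0.04997). The other 13 alternatives gave adjusted p values up to 0.36, and without KO library 1, the lowest, the log2 fold change was -0.40 (adjusted p = 0.278).

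Gclm (chromosome 3, 122245557 to 122270732) had 30.4, 30.3 and 36.0 CPM in control cells, against 29.3, 28.3 and 27.8 CPM in KO cells. The groups did not overlap, but the nearest values of the groups were close and the fold change was small (log2 fold change -0.18, SE 0.14, adjusted p = 0.513). Exons of Gclm overlap those of Gm17494, a noncoding gene on the opposite strand with 132 to 232 counts in control and 60 to 168 in KO libraries. Whether the counting used strand is not stated, so reads of this pair cannot be told apart with certainty.

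Slc7a11 (chromosome 3, 49892526 to 50443614, minus strand) encodes the transport chain of the cystine importer that feeds glutathione synthesis. It was measured at 5.81, 3.76 and 7.39 CPM in control and 9.04, 5.75 and 5.28 CPM in KO libraries, from 18 to 40 counts per library. KO library 1 was the highest, and the groups overlapped (log2 fold change 0.22, SE 0.32, adjusted p = 0.766). The interval ran from 0.728-fold to 1.86-fold, the widest of the set, and the sign turned without control library 2 (-0.01) or KO library 1 (-0.04), the library with the highest share of CT010467.1. Slc3a2, the partner chain of the importer, was at 93.1 ± 2.48 and 92.0 ± 3.05 CPM (mean ± SD, n = 3 each; log2 fold change -0.02, adjusted p = 0.953). Gsr (chromosome 8, 33652523 to 33698163), the reductase that regenerates glutathione, was measured at 65.9, 82.0 and 82.6 CPM in control and 57.7, 77.2 and 59.8 CPM in KO libraries. KO library 2 reached the range of the controls, and the log2 fold change was -0.24 (SE 0.14, adjusted p = 0.384).

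In the thioredoxin arm, Txnrd1 and Srxn1 were measured in opposite directions. Txnrd1 (chromosome 10, 82833951 to 82897712), the cytosolic thioredoxin reductase gene, had 209, 193 and 187 CPM in control cells, against 152, 151 and 153 CPM in KO cells. The KO libraries lay close together and all below the controls. The log2 fold change was -0.37 (SE 0.11, unadjusted 95% interval -0.61 to -0.13), and the adjusted p of 0.0963 did not pass. It did not pass in any of the 15 alternatives, where adjusted p ran from 0.0552 to 0.272. Srxn1 (chromosome 2, 152105516 to 152111376), which encodes sulfiredoxin, the repair enzyme of over-oxidised peroxiredoxins, was at 77.1, 58.9 and 72.04 CPM in control and 104, 91.0 and 77.0 CPM in KO libraries. KO library 3 was level with control library 1, so the groups touched. Its log2 fold change of 0.38 (SE 0.14, unadjusted 95% interval 0.09 to 0.68) was the most positive of the set and did not pass (adjusted p = 0.16, and 0.125 to 0.591 over the alternatives).

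**Figure D2:**
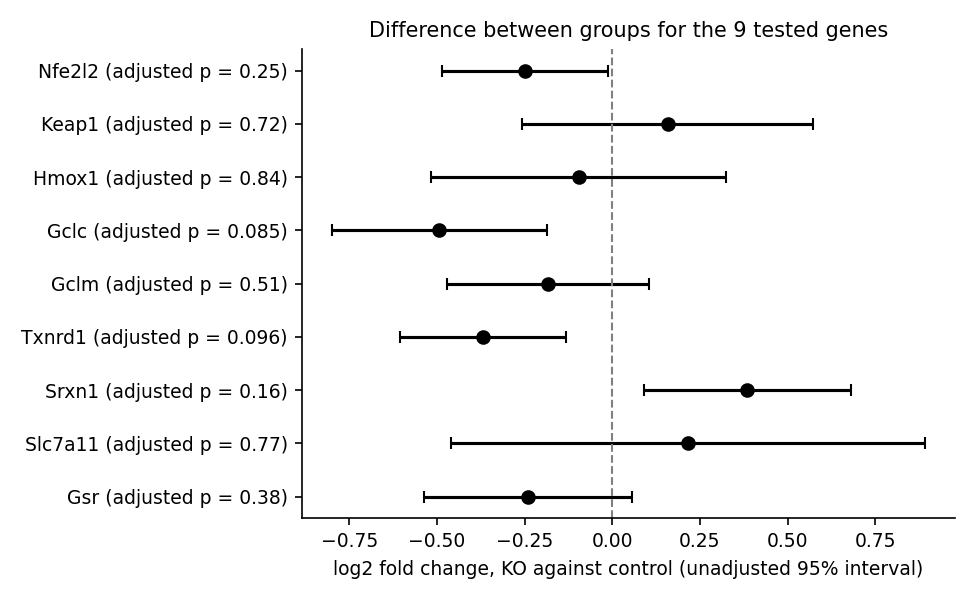
Log2 fold change of KO against control (x axis) with its unadjusted 95% interval for the 9 tested genes, with adjusted p values from edgeR beside each name. Intervals of Nfe2l2, Gclc and Txnrd1 lie below 0 and that of Srxn1 above 0, yet no adjusted p is under 0.05, and the upper ends of the intervals reach at most 1.86-fold, for Slc7a11.

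Nqo1 and Hmox1 are widely used readouts of Nrf2 activity. Nqo1 (chromosome 8, 107388225 to 107403206, minus strand), a quinone reductase gene, was almost silent, with 2, 11 and 4 counts in control cells, against 3, 7 and 11 in KO cells. These are 1.15 ± 1.01 and 1.46 ± 0.68 CPM (n = 3 each), too few for the low-count filter, and none of the 8 alternatives that tested it called it (adjusted p from 0.738). The groups overlapped, and an exact two-sided permutation test over the libraries gave p = 0.7, where 3 libraries against 3 cannot give less than 0.1. Hmox1 (chromosome 8, 75093621 to 75100589), the haem oxygenase gene, was measured at 68.7, 61.6 and 96.1 CPM in control and 79.3, 77.4 and 55.7 CPM in KO libraries. Control library 3 was the highest and KO library 3 the lowest, with the rest between them (log2 fold change -0.10, SE 0.19, adjusted p = 0.839, interval 0.699-fold to 1.25-fold). Without control library 3 the value was 0.11, and without KO library 3 it was 0.04, so its direction was not settled.

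Hmox1 is also transcribed in myeloid cells, whose markers varied between the libraries. The summed level of 11 neutrophil markers was 3.81, 2.92 and 2299 CPM in control libraries 1 to 3 and 3.72, 937 and 307 CPM in KO libraries 1 to 3. Their most abundant genes, S100a9 and Ngp, were at 629 and 599 CPM in control library 3. None of the 11 was at 0 in every library, and edgeR called none of the 8 it tested (0 at an unadjusted p under 0.05). Libraries of a group differed so much that the interval of S100a9 ran from 0.00294-fold to 73.7-fold. The lack of calls therefore does not show equal levels. The 12 macrophage markers summed to 11.1 to 112 CPM in control and 13.6 to 47.8 CPM in KO libraries. Their sum was again highest in control library 3, where Lyz2 and Itgam were at 76.1 and 18.3 CPM. This peak was not shared by all 12 markers. In control libraries 1 to 3, Ptprc had 3, 6 and 53 counts and Mrc1 11, 8 and 18. Adgre1 had 2, 2 and 1 counts there, Csf1r 5, 8 and 4, C1qa 3, 1 and 1, and Cd68 14, 6 and 13. Control library 3 had both the highest neutrophil sum and the highest Hmox1 level, at 96.1 CPM. In KO cells the highest neutrophil sum, in KO library 2, went with a Hmox1 level between those of the other KO libraries. With 3 libraries a group, these orders do not show whether myeloid RNA added to the Hmox1 values. Genes of red blood cells, a sign of blood left in the sample, were near 0: the globin gene Hbb-bs had at most 2 counts in a library and the haem synthesis gene Alas2 at most 1. Of the other globin genes looked at, chosen after their values were seen, Hba-a1 had at most 2 counts and Hba-a2 and Hbb-bt had 0 in all 6 libraries. The globin genes have near-identical copies, between which the counting of reads is uncertain. The part of myeloid RNA in the Hmox1 values was not tested beyond leaving out control library 3.

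Levels were compared between genes per kilobase of annotated exon (RPKM). In control cells the order was Hmox1 at 43.1 ± 10.4, Nfe2l2 at 29.5 ± 1.77, Gsr at 27.9 ± 3.44, Txnrd1 at 27.8 ± 1.63 and Srxn1 at 24.6 ± 3.34 RPKM. Gclc followed at 13.0 ± 0.42, Gclm at 5.13 ± 0.52, Keap1 at 2.32 ± 0.42, Nqo1 at 0.74 ± 0.65 and Slc7a11 at 0.41 ± 0.13 RPKM (mean ± SD, n = 3). The ranges of Nfe2l2, Gsr, Txnrd1 and Srxn1 overlapped from each gene to the next, as did those of Nqo1 and Slc7a11, while all other neighbours in this order were separate. Nqo1 and Slc7a11, both classic targets, were at the bottom of the order. The order depends on the annotated exon length, which was 7086 bases for Txnrd1, 1751 for Hmox1 and 13922 for Slc7a11. Which of the annotated transcripts were expressed was not tested. In CPM, Txnrd1 was the highest of the set in control cells, at a mean of 197 against 75.4 for Hmox1.

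**Figure D3:**
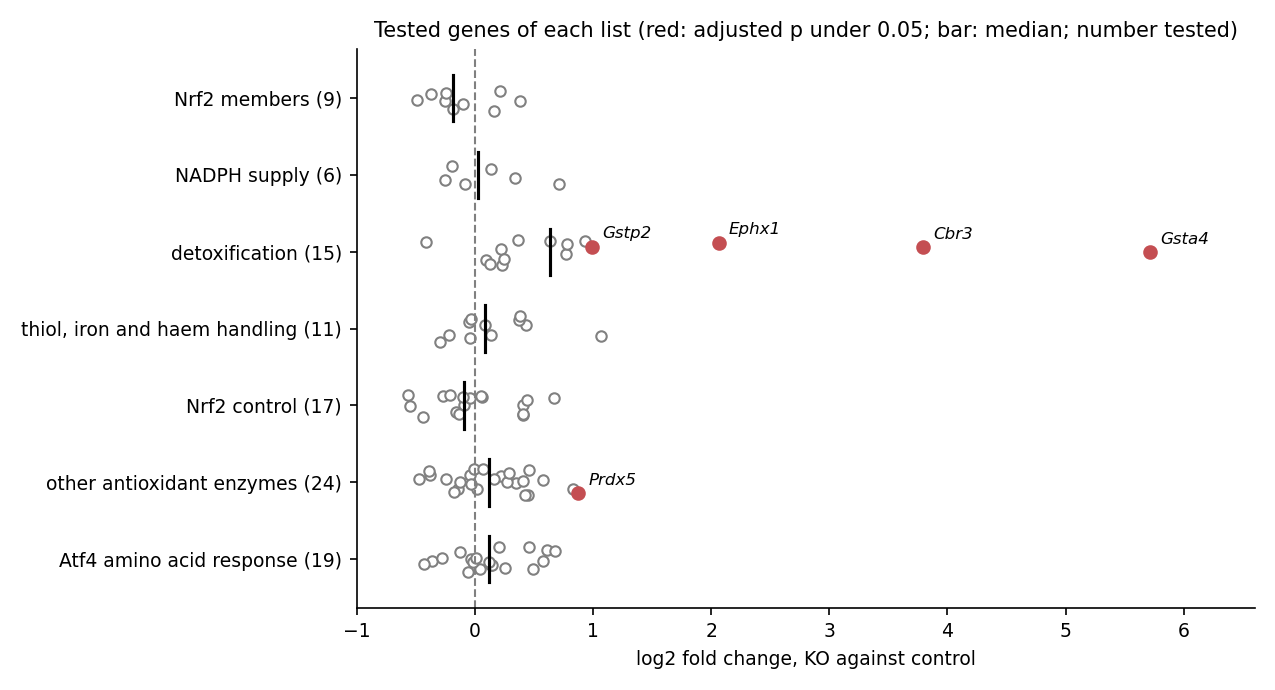
Log2 fold change of KO against control for the tested genes of the set and of 6 related lists, 1 point per gene, with genes at an adjusted p under 0.05 in red and the median of each list as a bar. Calls appear among the detoxification genes (Gstp2, Ephx1, Cbr3 and Gsta4) and for Prdx5 alone among the other antioxidant enzymes, and none in the set or the remaining 4 lists.

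Genes of the wider Nrf2 pathway were taken from lists by role, which were chosen with earlier results of these data known. Of 28 detoxification genes, which conjugate, reduce or export reactive chemicals, 15 were tested. Of these, 4 rose and 0 fell, against 2.22% and 0.615% of all tested genes, with a median of 0.64 against 0.01. Because of the way the list was chosen, these values describe it and do not test it. Gsta4, a glutathione transferase for products of lipid peroxidation, rose from 1.84 ± 0.73 to 98.1 ± 15.1 CPM, and Cbr3, a carbonyl reductase gene, from 1.56 ± 0.57 to 22.0 ± 4.12 CPM. The epoxide hydrolase gene Ephx1, also known as a p53 target, rose from 2.85 ± 0.60 to 11.97 ± 2.49 CPM. All 15 alternatives called these 3 genes. Gstp2, a pi-class transferase gene, rose from 9.31 ± 2.85 to 18.6 ± 3.75 CPM (adjusted p = 0.0341, with a log2 fold change of 0.99 and an SE of 0.23). Its call ended in DESeq2 (adjusted p = 0.244), in limma-voom (0.0732) and when any library but control library 2 and KO library 3 was left out (0.0661 to 0.177), and control library 3 and KO library 1 together (0.115). Gstp2 shared 54.3% of its 50-base words with other genes, so its reads cannot be separated with certainty from those of its neighbour Gstp1. The glutathione conjugate exporter gene Abcc1, chosen after its values were seen, had the only negative fold change among the 15, from 90.0 ± 7.05 to 67.8 ± 5.02 CPM (log2 fold change -0.41, adjusted p = 0.0737).

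The promoters of Cbr3, Ephx1, Gstp2 and Prdx5 in the same table held no TGACNNNGC within their 300 bases. That says only that these letters are not in this window. No promoter of Gsta4, the called gene of these lists with the largest rise, was in the table, so Gsta4 was not searched. The members whose windows hold the letters, Nfe2l2, Gclm, Txnrd1 and Srxn1, had log2 fold changes of -0.25, -0.18, -0.37 and 0.38.

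Genes that supply NADPH, the reducing power for both the glutathione and the thioredoxin reductase, were not called. The calls were 0 of 6 in edgeR, DESeq2 and limma-voom. At an unadjusted p under 0.05 in edgeR, 1 was higher and 0 were lower, against 10.1% and 7.64% of all tested genes. G6pdx, the entry enzyme of the pentose phosphate pathway, was at 63.7 ± 17.4 and 56.0 ± 6.30 CPM, and Pgd, the next NADPH step, at 53.5 ± 10.3 and 50.7 ± 2.94 CPM. Idh1, chosen after its values were seen, was at 10.8 ± 1.68 and 17.7 ± 2.33 CPM (log2 fold change 0.71, adjusted p = 0.0574), with all KO libraries above all controls. Of 13 genes of thiol, iron and haem handling, 11 were tested and none was called with these tools. In edgeR, 3 were higher and 1 was lower at an unadjusted p under 0.05, against the same 10.1% and 7.64%. The ferritin genes Fth1 and Ftl1 were at 815 ± 115 and 795 ± 69.3 CPM and at 288 ± 49.1 and 279 ± 50.4 CPM. The autophagy adaptor gene Sqstm1, whose product binds Keap1, was chosen after its values were seen. It was at 139, 137 and 131 CPM in control and 190, 175 and 164 CPM in KO libraries (log2 fold change 0.38, SE 0.11, adjusted p = 0.0943).

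Of 19 genes that control Nrf2, 17 were tested, none was called in edgeR, DESeq2 or limma-voom, and the median was -0.09. At an unadjusted p under 0.05 in edgeR, 4 were higher and 2 lower, against 10.1% and 7.64% of all tested genes. Cul3, the scaffold of the ligase that Keap1 serves, was at 166 ± 7.64 and 149 ± 21.02 CPM, and Crebbp, a coactivator gene, at 148 ± 21.5 and 138 ± 13.8 CPM. The small Maf partners of Nrf2 and its rival Bach1 were looked at after their values were seen. Mafk, a small Maf gene, was at 14.7 ± 1.73 and 23.6 ± 4.62 CPM (log2 fold change 0.67, adjusted p = 0.0603), and Maff at 16.2 ± 4.001 and 21.6 ± 1.74 CPM (0.41, adjusted p = 0.263). Mafg, the third small Maf gene, was at 43.5, 37.6 and 39.7 CPM in control and 42.3, 34.3 and 37.1 CPM in KO libraries, so its groups overlapped (-0.09, adjusted p = 0.767). Bach1, whose product represses the same elements and Hmox1 above all, was at 71.9, 58.9 and 47.8 CPM in control and 80.1, 81.7 and 75.6 CPM in KO libraries (0.41, adjusted p = 0.141). Every KO library lay above every control library in Mafk, Maff and Bach1 and not in Mafg, and none of these genes passed after adjustment. Over the 17 tested genes of this list, every KO library lay above every control library in 4, where this held for 12.8% of all tested genes. Every KO library lay below every control library in 2 of the 17, where this held for 11.5% of all tested genes.

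Among 25 other antioxidant enzymes, 24 were tested, with a median of 0.12. Of these, 1 rose and 0 fell, against 2.22% and 0.615% of all tested genes. At an unadjusted p under 0.05 in edgeR, 6 were higher and 0 lower, against 10.1% and 7.64% of all tested genes. Every KO library lay above every control library in 7 of the 24 and below in 2. Over all tested genes these shares were 12.8% and 11.5%. Prdx5, a peroxiredoxin of mitochondria, peroxisomes and cytosol, was measured at 22.2, 23.8 and 28.4 CPM in control and 42.8, 48.3 and 45.3 CPM in KO libraries. The KO libraries were all far above the controls (log2 fold change 0.87, SE 0.14, adjusted p = 0.00191), and the call was made in all 15 alternatives. Of 19 genes of the Atf4 amino acid response, a second known driver of Slc7a11, none was called in edgeR, DESeq2 or limma-voom (at an unadjusted p under 0.05, 4 were higher and 3 lower). Atf4 was at 285 ± 18.8 and 279 ± 9.61 CPM, and the serine synthesis gene Psat1 at 162 ± 8.09 and 156 ± 10.4 CPM.

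Gclc lies near Gsta4 on chromosome 9, so the tested genes within 500 kb of Gclc, measured between the nearest ends of the genes, were described. This window was drawn because Gsta4 lies in it, so its count of rises includes Gsta4 by design. It held 8 tested genes, Gclc included, of which 3 rose and 0 fell, against 2.22% and 0.615% of all tested genes. All 3 lay on the Gsta4 side: Ick, with its start 354.7 kb from that of Gclc, rose by 0.80 on the log2 scale (SE 0.15, adjusted p = 0.0085), Gsta4 at 428.2 kb by 5.72 (SE 0.22), and Gm3776 at 502.6 kb by 4.39 (SE 0.46). Elovl5, at 162.8 kb and between Gclc and these genes, had a log2 fold change of -0.04 (SE 0.12), and Lrrc1, on the far side, of -0.14 (SE 0.35). Fbxo9, with its start at 354.5 kb, had 0.52 (SE 0.206, adjusted p = 0.205), and Rn7sk, at 421.1 kb, 0.245 (SE 0.261, adjusted p = 0.673). Gsta1, between Gsta4 and Gm3776, was too low to be tested in edgeR, with no count in any control library against 3, 12 and 16 counts in KO cells. It was called higher in 6 of the 7 alternatives that tested it, DESeq2 among them (adjusted p = 0.031). Because 90.5% of the 50-base words of Gsta1 and 92.5% of those of Gm3776 also occur in other genes, the origin of their reads is uncertain, while Gsta4 shares 0%. The measured differences in this window ran from -0.49 for Gclc to 5.72 for Gsta4.

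**Figure D4:**
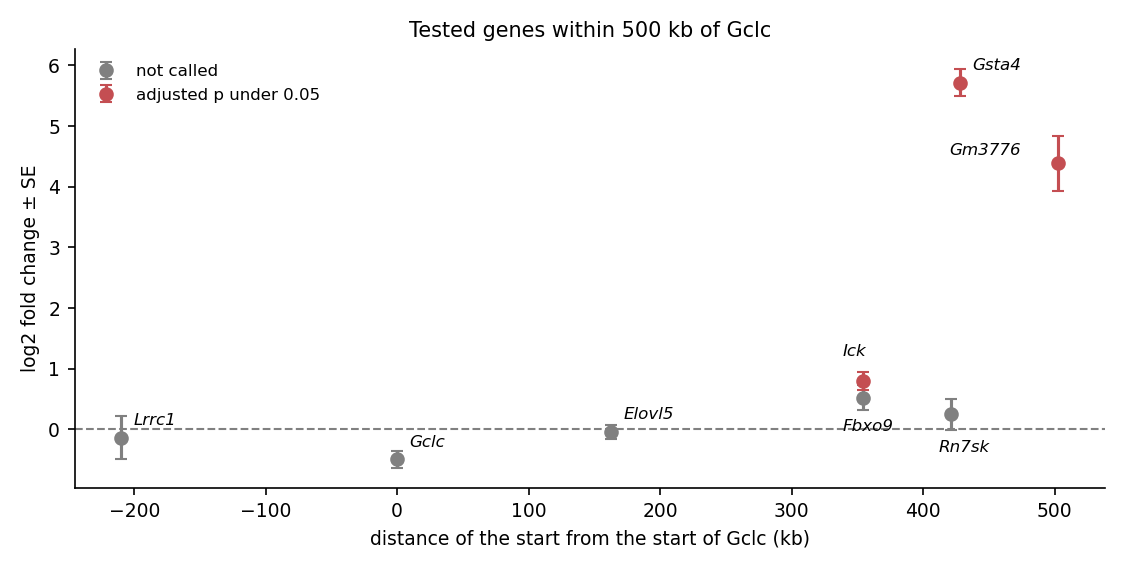
Log2 fold change ± SE of the 8 tested genes within 500 kb of Gclc (y axis) against the distance of each start from the Gclc start (x axis, kb), with called genes in red. Gclc and its nearest tested neighbours lie near or below 0, and the called genes Ick, Gsta4 and Gm3776 lie 354.7 to 502.6 kb away.

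Libraries held 4052569 to 5690844 counts, of which 2002124 to 3050460 fell on protein-coding genes. Setdb1 itself was at 35.8 ± 4.26 CPM in control and 14.6 ± 1.88 CPM in KO libraries (adjusted p = 2.092e-04), in the direction of the labels. Its exons overlap those of Cers2 on the opposite strand (437 to 531 counts in control and 440 to 500 in KO libraries), so the amount of Setdb1 transcript left in KO cells is uncertain. All 10 satellite cell markers, of the labelled cell type, were detected, and they summed to 1281 to 1366 CPM in control and 1461 to 1880 CPM in KO libraries (Des at 371 ± 22.1 and 510 ± 98.5, Sdc4 at 292 ± 5.76 and 280 ± 20.8). Of these 10, edgeR called 1 higher and 0 lower, against 2.22% and 0.615% of all tested genes. The called gene was Myod1, the transcription factor gene that commits cells to muscle, named after its values were seen. Myod1 was at 141, 148 and 137 CPM in control and 361.5, 276 and 238 CPM in KO libraries (log2 fold change 1.04, SE 0.15, adjusted p = 7.791e-04). The part of this difference in the members' values was not tested. The 8 fibro-adipogenic markers summed to 570 to 1328 and 1183 to 1748 CPM (Col1a1 at 368 ± 187 and 548 ± 217, Col3a1 at 326 ± 108 and 504 ± 67.5). Of these markers 6 were tested and 0 called, and all 6 had a positive log2 fold change (median 0.54). Every KO library lay above every control library in 2 of the 6, against 12.8% of all tested genes. The 5 endothelial markers summed to 3.97 to 11.01 and 10.2 to 11.97 CPM (Eng and Tek the highest). The 16 dissociation stress genes, which handling of cells raises, with Jun and Fosb the highest, summed to 947 to 1352 and 1292 to 1473 CPM. In edgeR 0 of them were called. At an unadjusted p under 0.05 there were 9 higher and 1 lower, against 10.1% and 7.64% of all tested genes. A positive log2 fold change was measured in 15 of the 16 and a negative one in 1, with a median of 0.41. Every KO library lay above every control library in 8 of the 16, and below in 0. Over all tested genes these shares were 12.8% and 11.5%. The part of these stress genes in the values of Srxn1 and the other members was not tested. With 3 libraries a group, the intervals of Gclc, Txnrd1 and Srxn1 reach down to 0.575-fold and 0.657-fold and up to 1.6-fold, so an adjusted p that misses the threshold does not show that these genes were equal.

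**Figure D5:**
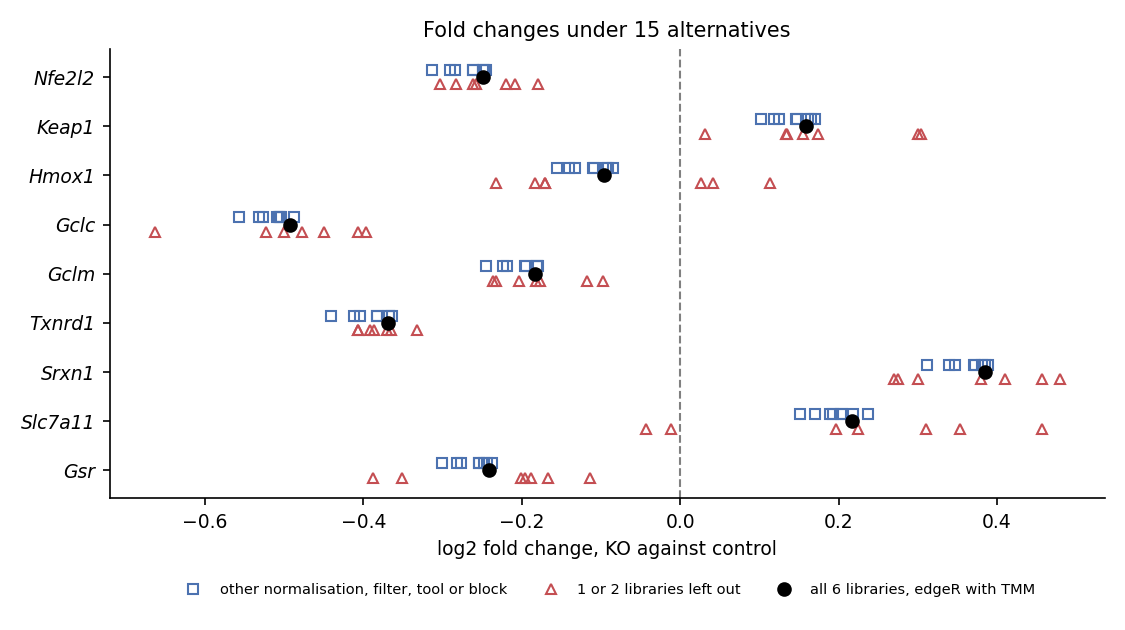
Log2 fold change of the 9 tested genes (x axis) with all 6 libraries in edgeR (black), under other normalisations, filters, tools or a replicate block (blue squares) and with 1 or 2 libraries left out (red triangles). Values of Nfe2l2, Gclc, Gclm, Txnrd1 and Gsr are all below 0 and those of Keap1 and Srxn1 all above 0, while those of Hmox1 and Slc7a11 fall on both sides.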

How the data were processed

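Per the labels' protocols, stranded libraries were made from 400 ng of total RNA after ribosomal depletion and sequenced as paired 75-base reads, although a second kit is named as well. The genome GRCm38 and the tools STAR, Salmon and DESeq2 1.34.0 are named in the submitters' processing notes. Neither the tool that counted the reads nor its strand setting is given in the sources used here. Per the labels, the authors deposited raw counts per Ensembl gene in 1 table with 6 library columns. Symbols matched 55141 of 55487 genes, and positions came from GENCODE M21.

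Counts were tested with edgeR 4.0.16 in R 4.3.3 (robust quasi-likelihood, TMM, default low-count filter, two-sided, Benjamini-Hochberg over 11224 genes, threshold 0.05). SE and unadjusted 95% intervals of log2 fold changes came from the F statistic. Alternatives used DESeq2 1.42.0, limma 3.58.1 (voom), other scalings and filters, removal of structural RNA genes, a replicate block and left-out libraries. The procedure was tested on simulated data, where it called 18.8% of 1.5-fold, 64% of 2-fold and 90.8% of 4-fold changes. It called 0.138% of unchanged genes there. Most changes of 1.5-fold were thus missed.

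Libraries of a group differed beyond sampling noise. The labels call them biological replicates. Members, lists and alternatives were chosen with earlier results of these data known. Named were all members, up to 6 called genes per list or else its 2 highest, Setdb1, Slc3a2 and the 2 highest of each marker list. Members shared at most 3.92% of their 50-base words with other genes.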

Additional observations from a re-analysis of the deposited data

How the results depend on the processing

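No alternative called a member higher, and no alternative but 2 called one lower: 1 gene, Gclc, without a low-count filter and 0 to 1 when a single library was left out. Of 135 values of members under alternatives, 128 kept direction and side of the threshold, 2 passed and 5 changed sign. Genes called over the whole table were 147 higher and 37 lower with DESeq2, 138 lower without a filter, 34 lower with limma-voom, 41 lower with the replicate block, 106 lower without control library 3 and KO library 1 together, and 133 to 255 higher and 15 to 90 lower with 1 library left out. The replicate numbers do not pair the libraries (correlations of deviations 0.142, -0.0925 and -0.0615), and the block called 0 members and ended the Gstp2 call (0.0582). With structural RNA genes removed, 1 gene of NADPH supply (Idh1) and 1 of Nrf2 control (Mafk) were higher, and 2 other antioxidant enzymes were, as also without a filter. Without control library 3 and KO library 1 together, 1 gene of NADPH supply was higher and 1 of Nrf2 control (Chd6) lower, and the log2 fold changes of Atf4, Fth1, G6pdx, Hmox1 and Pgd turned to 0.044, 0.146, 0.040, 0.026 and 0.065. With 1 library left out, calls ran from 0 to 1 for NADPH supply and for the Atf4 response and from 1 to 2 for other antioxidant enzymes. The log2 fold changes that changed sign then ran from -0.070 to 0.021 for Atf4, -0.198 to 0.011 for Crebbp, -0.121 to 0.082 for Fth1, -0.207 to 0.095 for Ftl1, -0.356 to 0.046 for G6pdx, -0.232 to 0.114 for Hmox1, -0.169 to 0.089 for Pgd and -0.043 to 0.457 for Slc7a11. The causes were not tested. Depth limits Nqo1, Slc7a11 and Keap1 most.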
